A study of Mus musculus with 8 samples.

Results

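The genes described here encode the lysosome, the vacuolar proton pump that acidifies it (V-ATPase) and the MiT transcription factors (TFEB, TFE3 and MITF), measured by microarray in mouse leukaemia stem cells with and without Pik3ca. The list held 42 gene symbols chosen by function, and 38 of them were found among the 19505 symbols of the table, 1 row per symbol (the row of highest mean over the arrays). The other 4 (Cd68, Ctsd, Glb1 and Atp6v0c) were not analysed here. All 38 passed the filter on dim rows, so they were tested among 9920 genes. The study compared 3 arrays of Pik3ca-/- cells (KO) with 5 arrays of wild-type cells (WT). KO and WT cells alike carried MLL-AF9, a fusion oncogene that gives myeloid progenitors self-renewal, and were granulocyte-macrophage progenitors positive for GFP, sorted from the bone marrow of transplanted mice. The labels give no strain, age, Cre driver or count of mice for either group, so the p-values measure the spread between these arrays, which may be technical. All values are the deposited log2 signals, on which a difference of 1 is a doubling, and the number of arrays limits their precision.

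The lysosome is the acidic compartment in which cells break down proteins, glycans and lipids, and myeloid cells also build their granules from related material. The V-ATPase pumps protons into it through a membrane sector, V0, driven by an ATP-hydrolysing sector, V1. TFEB and its relatives bind a CACGTG-centred sequence in the promoters of many lysosomal genes. They are held in the cytoplasm when the kinase mTORC1, active on the lysosomal surface, phosphorylates them. Pik3ca encodes p110-alpha, a catalytic subunit of phosphoinositide 3-kinase, which feeds AKT and mTORC1, and the comparison asks whether these genes differed between cells with and without it.

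The sequence known to be bound by the MiT factors is shown for the measured genes that hold it in the promoter. The palindrome TCACGTGA, the same on both strands and itself containing the motif CACGTG, was searched in RefSeq promoters of GRCm38.p6, from 250 bases before to 50 bases after each start site. Of the 38 genes, 31 had a promoter there, and 5 of these, or 16.1%, held TCACGTGA, against 304 of all 27025 genes, or 1.12%. The shorter CACGTG was found in 9 of the 31, or 29.0%, against 8.09% of all genes. A match is a description of the letters and not a measured binding site. Since the genes were chosen by function, as lysosomal genes, these shares are not a test. The windows of 30 bases below are given 5′ to 3′ on the gene's strand, with TCACGTGA in capitals.
Mcoln1 (chr8:3500462-3500491, + strand): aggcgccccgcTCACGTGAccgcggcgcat
Ctsa, first match (chr2:164833749-164833778, + strand): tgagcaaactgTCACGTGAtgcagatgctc
Ctsa, second match (chr2:164833766-164833795, + strand): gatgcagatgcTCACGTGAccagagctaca
Gla, nearer match (chrX:134601182-134601211, - strand): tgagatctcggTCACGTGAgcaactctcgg
Gla, farther match (chrX:134601215-134601244, - strand): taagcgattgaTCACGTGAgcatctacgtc
Atp6v1a (chr16:44139373-44139402, - strand): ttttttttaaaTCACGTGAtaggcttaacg
Atp6v0d1 (chr8:105566050-105566079, - strand): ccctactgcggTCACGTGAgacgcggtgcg
The palindrome began 46 bases before the start site in Mcoln1, 132 in Atp6v1a and 4 in Atp6v0d1, so that it reached across the start site in Atp6v0d1. It began 13 bases before the start site and again at base 5 after it in Ctsa, and 195 and 228 bases before it in Gla.

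WT array 3 stood apart from the other arrays. Its mean correlation with them over the tested genes was 0.921, while each of the other 7 had a mean of 0.968 to 0.972, and differences are therefore also given without it. Pik3ca itself was 8.73, 9.31 and 9.40 in the KO arrays, against 9.48, 9.57, 8.41, 9.51 and 9.58 in WT arrays 1 to 5. The KO arrays lay below the WT arrays only when WT array 3 was left out, and which part of the gene was deleted is not stated in the labels, so this row did not check the genotype. All 8 progenitor markers (Mpo, Elane, Prtn3, Ctsg, Kit, Cd34, Fcgr3 and Cebpa) exceeded each array's median row on all 8 arrays, and their summed signal, as log2, was 19.20 to 19.36 in KO and 19.17 to 19.50 in WT. That sum is mostly Elane, Mpo and Prtn3, and 0 of the 8 passed the test. Cd34 was 5.63, 7.81 and 7.42 in KO, against 9.49, 7.24, 10.94, 9.08 and 8.01 in WT. Its groups overlapped at WT array 2, and its difference was -2.001, or -1.50 without WT array 3, with an unadjusted p of 0.0368 or 0.0531 and an adjusted p of 0.998 or 0.989 in limma. Markers of monocytes and macrophages, cells rich in lysosomes, summed to 16.52 to 16.75 in KO and 16.48 to 16.89 in WT, with C1qa and C1qb below the median row on every array. That sum is mostly Ly6c2 and Itgam, and 0 of the 9 tested passed. Ms4a6c, of this list, was 7.90, 8.20 and 7.76 in KO, against 9.39, 8.69, 9.64, 9.16 and 8.58 in WT, without overlap. Its difference was -1.14, or -0.999 without WT array 3, with an adjusted p of 0.998 or 0.986 in limma. Cx3cr1 differed by -0.50, or -0.60 without WT array 3. Cd34, Ms4a6c and Cx3cr1 are named after their values were seen, and the part of cell composition in the results was not tested. Of the 5 T and NK cell markers, Nkg7 alone lay above the median row on every array, at 11.54 to 12.66 in KO and 12.58 to 13.43 in WT, and Cd3e and Cd3g were below it on every array. Of the osteoclast markers, 4 of 5 were below the median row on every array. In bulk cells, fewer cells of a type and less RNA per cell cannot be told apart.

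None of the 38 measured genes of the lysosome, the V-ATPase and the MiT family passed the test between KO and WT. In limma, fitted over all 9920 genes with Benjamini-Hochberg adjustment, 0 of the 38 had a higher and 0 a lower signal in KO past an adjusted p of 0.05, as for 0% of all tested genes. The lowest adjusted p among the 38 was 0.998. By unadjusted p the count below 0.05 was also 0 of 38, against 2.84% of all tested genes. Without WT array 3 the counts were again 0 of 38 by adjusted p, with a background of 0%, and 0 of 38 by unadjusted p, with a background of 4.68%. The KO and WT arrays overlapped in all 38 genes, with and without WT array 3, and they did not overlap in 3.09% and 5.55% of all tested genes. No member differed by more than 1 log2 unit in either comparison, against 2.28% of all tested genes with all arrays and 1.46% without WT array 3. All these shares of all tested genes are small, so counts of 0 among 38 genes do not set the list apart.

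The median difference over the 38 genes was 0.08, with quartiles of -0.03 and 0.24, and over all tested genes it was 0.04, with quartiles of -0.16 and 0.26. Differences above 0 were found in 24 of the 38, or 63.2%, against 56% of all tested genes. Without WT array 3 the median turned to -0.03, with 15 of 38, or 39.5%, above 0, against a median of 0.00018 and 50.1% of all tested genes. The sign of the group's median therefore rested on WT array 3.

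For most of these genes, as for most of all tested genes, the interval of the difference lay within 1 log2 unit of 0. Without WT array 3, the 95% interval of the difference lay wholly between -1 and 1 in 30 of the 38 genes, or 78.9%, against 72.2% of all tested genes. With all arrays this held for 26 genes, or 68.4%, against 54.8%. The distance from the difference to either end of the interval had a median of 0.65 over the 38 genes. It narrowed to 0.50 when WT array 3 was left out. Differences smaller than this mostly could not be told from 0 even by unadjusted p. These intervals are not adjusted for the number of genes, and the adjusted test needs larger differences. With all arrays it called 0% of all tested genes, although 2.28% of them differed by more than 1.

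**Figure D1:**
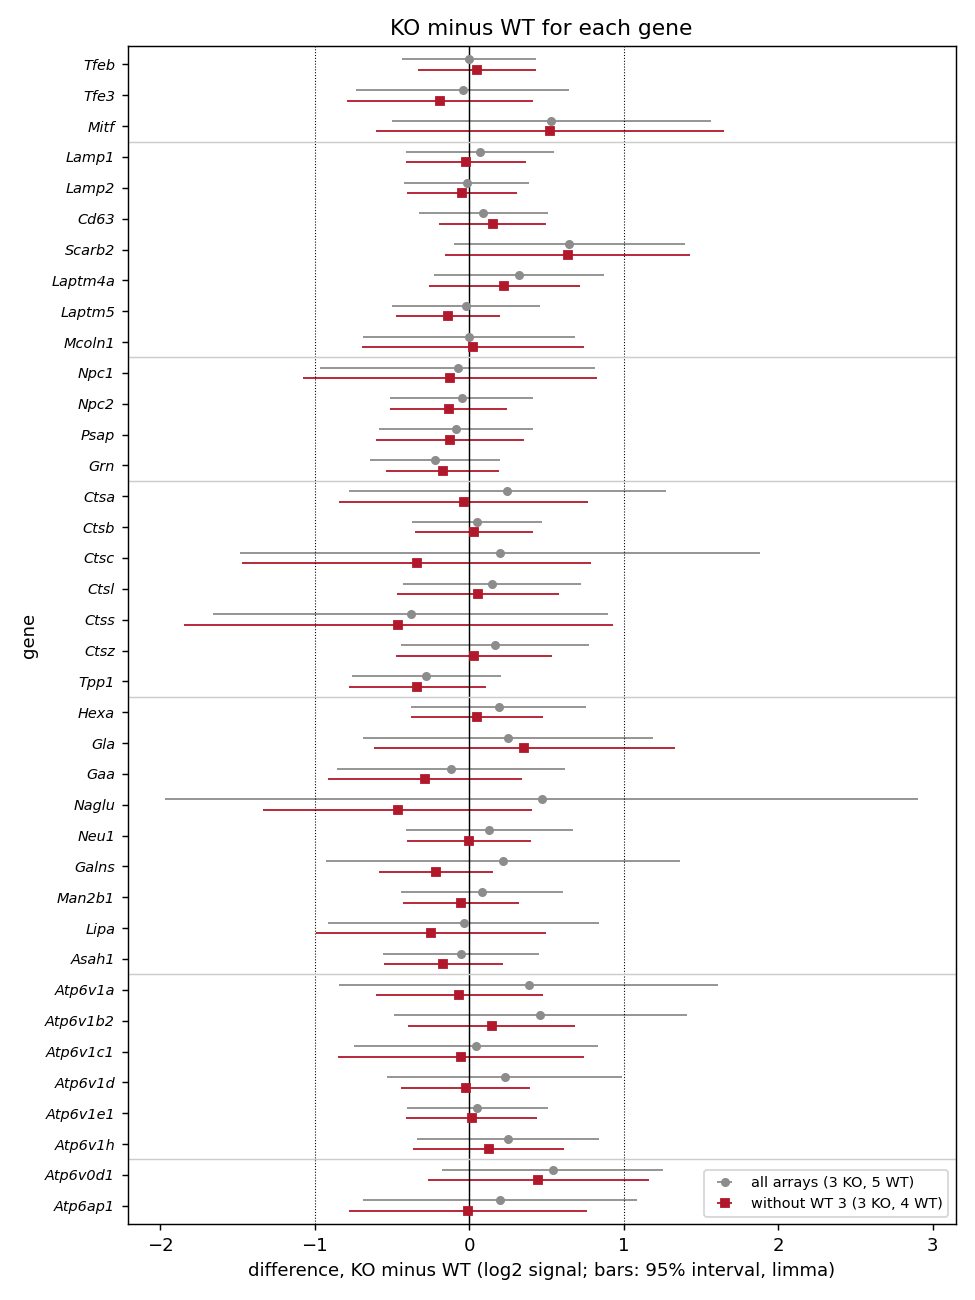
Difference between KO and WT in log2 signal for each of the 38 genes (points), with the 95% interval from limma (bars), from all arrays (grey circles, 3 KO and 5 WT) and without WT array 3 (red squares, 3 KO and 4 WT); dotted lines mark -1 and 1. All intervals cross 0, and that of Naglu narrows most when WT array 3 is left out, to -1.33 to 0.41.

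Of the MiT factors, which switch lysosomal genes on, Tfeb (NCBI gene 21425) varied least between arrays. It was 7.47, 7.34 and 7.43 in KO arrays 1 to 3, against 7.26, 7.46, 7.63, 7.57 and 7.18 in WT arrays 1 to 5. The KO values lay inside the WT range, with means of 7.42 ± 0.07 for KO (SD, n = 3) and 7.42 ± 0.20 for WT (SD, n = 5). The difference was -0.0027, with a 95% interval of -0.44 to 0.43 and an adjusted p of 0.999 in limma, and 0.05, with an interval of -0.33 to 0.43, without WT array 3. That last interval runs from 0.794-fold to 1.35-fold.

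Tfe3 (NCBI gene 209446) varied more between arrays. It was 7.92, 8.41 and 7.47 in KO, against 8.17, 7.73, 7.39, 8.19 and 8.40 in WT, with KO array 3 and WT array 3 the lowest of their groups. The difference was -0.04, and -0.19 without WT array 3, with an interval of -0.79 to 0.41. Mitf (NCBI gene 17342), best known from melanocytes, mast cells and osteoclasts, was dim: it exceeded the median row on 3 arrays, the fewest that the filter allows. It was 4.96, 5.38 and 6.63 in KO, against 4.80, 5.37, 5.10, 4.36 and 6.01 in WT. KO array 3 was the highest of the 8 and the groups overlapped, with a difference of 0.53, an interval of -0.50 to 1.56 and an adjusted p of 0.998 in limma, and it was 0.52 without WT array 3.

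Among the lysosomal membrane proteins, 0 of the 7 measured genes passed the test, and the difference was above 0 in 4 and below 0 in 3. Scarb2 had the smallest unadjusted p of all 38 genes. It encodes LIMP-2, the receptor that carries glucocerebrosidase to the lysosome. Scarb2 was 8.11, 9.40 and 8.65 in KO, against 8.08, 7.85, 8.03, 8.68 and 7.73 in WT. All KO arrays lay above 4 of the 5 WT arrays, and WT array 4 exceeded KO arrays 1 and 3. The difference was 0.65 with a standard error of 0.33, an unadjusted p of 0.0818 and an adjusted p of 0.998 in limma, and it was 0.64 without WT array 3. Laptm4a, a small lysosomal membrane protein gene, was 14.23, 14.35 and 14.61 in KO, against 14.21, 13.76, 13.69, 14.20 and 14.50 in WT. All KO arrays were above 4 of the 5 WT arrays and WT array 5 overlapped them, with a difference of 0.32, an interval of -0.23 to 0.87 and an adjusted p of 0.998, and it was 0.23 without WT array 3.

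The classical lysosomal membrane markers were bounded tightly. Lamp1 and Lamp2, the most used markers of the organelle, were 14.72 ± 0.15 and 16.79 ± 0.05 in KO (SD, n = 3 each) and 14.65 ± 0.25 and 16.81 ± 0.13 in WT (SD, n = 5 each). Without WT array 3 the difference was -0.02 for Lamp1 and -0.05 for Lamp2, with intervals of -0.41 to 0.36 and -0.40 to 0.31. The interval of Lamp2 runs from 0.757-fold to 1.24-fold. Cd63, a tetraspanin of late endosomes and granules, differed by 0.15 without WT array 3, and Laptm5, a haematopoietic lysosomal protein gene, by -0.14. Mcoln1, encoding the lysosomal calcium channel TRPML1, differed by -0.0033 with all arrays and by 0.02 without WT array 3, and ranged from 10.34 to 11.46 in KO and from 10.55 to 11.45 in WT.

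The genes that export sterol or assist the hydrolases had 4 of 4 differences below 0, and 0 of 4 passed. Grn encodes progranulin, a partner of lysosomal enzymes that is abundant in myeloid cells. It was 17.07, 16.996 and 16.71 in KO, against 17.07, 17.10, 17.35, 17.17 and 17.06 in WT. KO array 3 was the lowest of the 8, and the difference was -0.22, with an interval of -0.65 to 0.20 and an adjusted p of 0.998, and -0.17 without WT array 3. Psap encodes the precursor of the saposins, cofactors of sphingolipid hydrolases. It was 14.53, 14.80 and 14.06 in KO, against 14.70, 14.46, 14.40, 14.68 and 14.51 in WT. The KO arrays held both the highest and the lowest value of the 8, with a difference of -0.09, and -0.12 without WT array 3. Npc1 and Npc2, which hand cholesterol out of the lysosome, differed by -0.08 and -0.05, and by -0.12 and -0.13 without WT array 3. Npc1 was 7.13 in WT array 1 and 5.46 to 6.12 in the other arrays, and its difference was 0.22 without WT array 1. The array medians were 5.26 to 5.51, so Npc1 was dim, which limits what its difference shows.

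Among the cathepsins and the other proteases, 0 of the 7 measured genes passed. The difference was above 0 in 5 and below 0 in 2, or in 3 and 4 without WT array 3. Tpp1, encoding tripeptidyl peptidase 1, was 11.94, 12.05 and 11.46 in KO, against 12.11, 12.03, 11.87, 12.30 and 12.17 in WT. KO array 3 was the lowest of the 8 and the other KO arrays overlapped WT arrays 2 and 3. The difference was -0.28, and -0.34 with an interval of -0.78 to 0.11 and an adjusted p of 0.989 without WT array 3. Ctss encodes cathepsin S, a protease of antigen-presenting cells. It was 5.29, 6.95 and 6.38 in KO, against 8.20, 5.91, 6.27, 6.57 and 5.99 in WT. Ctss was dim, above the median row on 7 of the 8 arrays, which limits what its difference shows. WT array 1 was far above the rest, with a difference of -0.38 over all arrays, -0.46 without WT array 3 and 0.023 without WT array 1. Markers of megakaryocytes and platelets summed to 8.83 to 9.06 in KO, against 13.78 in WT array 1 and at most 10.15 in the other WT arrays. Those of monocytes and macrophages summed to 16.85 in WT array 1, within the range of the other WT arrays, but that sum is mostly Ly6c2 and Itgam. Csf1r and Ccr2 of this list were highest of all arrays on WT array 1, at 11.78 and 8.36. The other measured markers of the list were highest on other arrays, and these values were picked after they were seen. The part of such cells in the Ctss value was not tested.

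Ctsb, the general cysteine protease cathepsin B, was 15.36 ± 0.16 for KO (SD, n = 3) and 15.31 ± 0.13 for WT (SD, n = 5), with a difference of 0.05, an interval of -0.37 to 0.47, and a difference of 0.03 without WT array 3. Ctsc encodes the dipeptidyl peptidase that activates the serine proteases of granulocyte granules. It was 9.65, 11.65 and 10.59 in KO, against 10.24, 11.46, 8.27, 11.44 and 10.75 in WT. The groups overlapped widely, with KO array 1 and WT array 3 the lowest of their groups, and the difference of 0.20 became -0.34, with an interval of -1.47 to 0.79, without WT array 3. Ctsa, whose product protects the enzymes encoded by Neu1 and Glb1, differed by 0.25, and by -0.04 without WT array 3. Ctsz and Ctsl, encoding further cysteine cathepsins, differed by 0.17 and 0.15, and by 0.03 and 0.05 without that array. Ctsl was dim, at 5.54 to 6.35, where the array medians were 5.26 to 5.51, which limits what its difference shows.

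The hydrolases of glycans and lipids numbered 9, of which 0 passed, with 6 differences above 0 and 3 below, or 2 above and 7 below without WT array 3. Hexa encodes the alpha subunit of beta-hexosaminidase, which degrades gangliosides. It was 14.28, 14.50 and 14.05 in KO, against 14.32, 13.97, 13.54, 14.22 and 14.40 in WT. WT array 3 was the lowest of the 8, and the difference of 0.19 became 0.05, with an interval of -0.38 to 0.48, without it. Gla, encoding alpha-galactosidase A, was 6.08, 6.90 and 5.95 in KO, against 7.02, 5.92, 6.48, 5.37 and 5.50 in WT. The groups overlapped over nearly their whole range, with a difference of 0.25 and an interval of -0.69 to 1.19, and a difference of 0.36 without WT array 3. Gla exceeded the median row on 7 of the 8 arrays, and this dim signal limits what its difference shows.

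WT array 3 moved 2 genes of this group most. Naglu and Galns, which act on heparan sulfate and keratan sulfate, are described because of that array's values, after they were seen. Naglu was 9.19, 9.86 and 8.52 in KO, against 9.89, 8.90, 4.99, 10.05 and 9.77 in WT. Galns was 13.44, 13.56 and 13.25 in KO, against 13.69, 13.48, 11.46, 13.72 and 13.64 in WT. In both genes WT array 3 lay far below all other arrays. Their differences of 0.47 and 0.22 became -0.46 and -0.21 without it, with unadjusted p of 0.254 and 0.217 and an adjusted p of 0.989 each in limma. The remaining hydrolases are given without that array. Gaa, the glycogen-degrading acid glucosidase gene, differed by -0.29, Lipa, the acid lipase gene, by -0.25 and Asah1, the acid ceramidase gene, by -0.17. Man2b1, an alpha-mannosidase gene, and Neu1, a sialidase gene, differed by -0.05 and -0.0013.

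The V1 sector of the proton pump, which hydrolyses ATP, had 6 measured genes and 0 that passed. All 6 differences were above 0 with all arrays, with a median of 0.24, but 3 of 6 were above 0 without WT array 3, with a median of -0.0035, and Atp6v1c1 was also below 0 after quantile normalization and after median centring. Atp6v1b2 encodes the B2 subunit of the catalytic ring. It was 13.25, 13.01 and 12.34 in KO, against 12.69, 12.62, 11.14, 12.69 and 12.89 in WT. KO arrays 1 and 2 were above all WT arrays, KO array 3 was below 4 of them, and WT array 3 was the lowest of the 8. The difference of 0.46 became 0.14 without WT array 3, with an interval of -0.40 to 0.68 and an adjusted p of 0.989.

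Atp6v1h encodes the regulatory H subunit. It was 7.97, 8.06 and 8.25 in KO, against 8.18, 8.29, 7.34, 7.82 and 7.58 in WT. The KO values lay within the WT range, with a difference of 0.25, and 0.13 without WT array 3. Atp6v1a, the catalytic A subunit gene, and Atp6v1d, a rotor gene, differed by 0.38 and 0.23, and by -0.06 and -0.02 without WT array 3, which stood at -2.24 and -1.25 from the mean of the other WT arrays. Atp6v1c1 and Atp6v1e1, genes of the stator, differed by 0.05 each, and by -0.06 and 0.02 without that array. Without WT array 3, all 6 intervals of this sector lay between -1 and 1.

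The V0 sector and its accessory protein were represented by 2 measured genes. Atp6v0d1, encoding the d1 subunit that joins the membrane ring to the shaft, had the second smallest unadjusted p of the 38 genes with all arrays, and the third smallest, after Scarb2 and Tpp1, without WT array 3. It was 12.08, 12.68 and 11.61 in KO, against 11.54, 11.96, 11.22, 12.04 and 11.17 in WT. KO arrays 1 and 2 lay above all WT arrays and KO array 3 among them, with a difference of 0.54, a standard error of 0.32, an unadjusted p of 0.123 and an adjusted p of 0.998 in limma. Without WT array 3 the difference was 0.45, with an interval of -0.27 to 1.16. Atp6ap1, encoding the accessory protein Ac45, was 10.92, 11.07 and 10.13 in KO, against 10.33, 10.85, 9.68, 11.37 and 10.30 in WT. The groups overlapped, with a difference of 0.20, and -0.0081 without WT array 3.

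**Figure D2:**
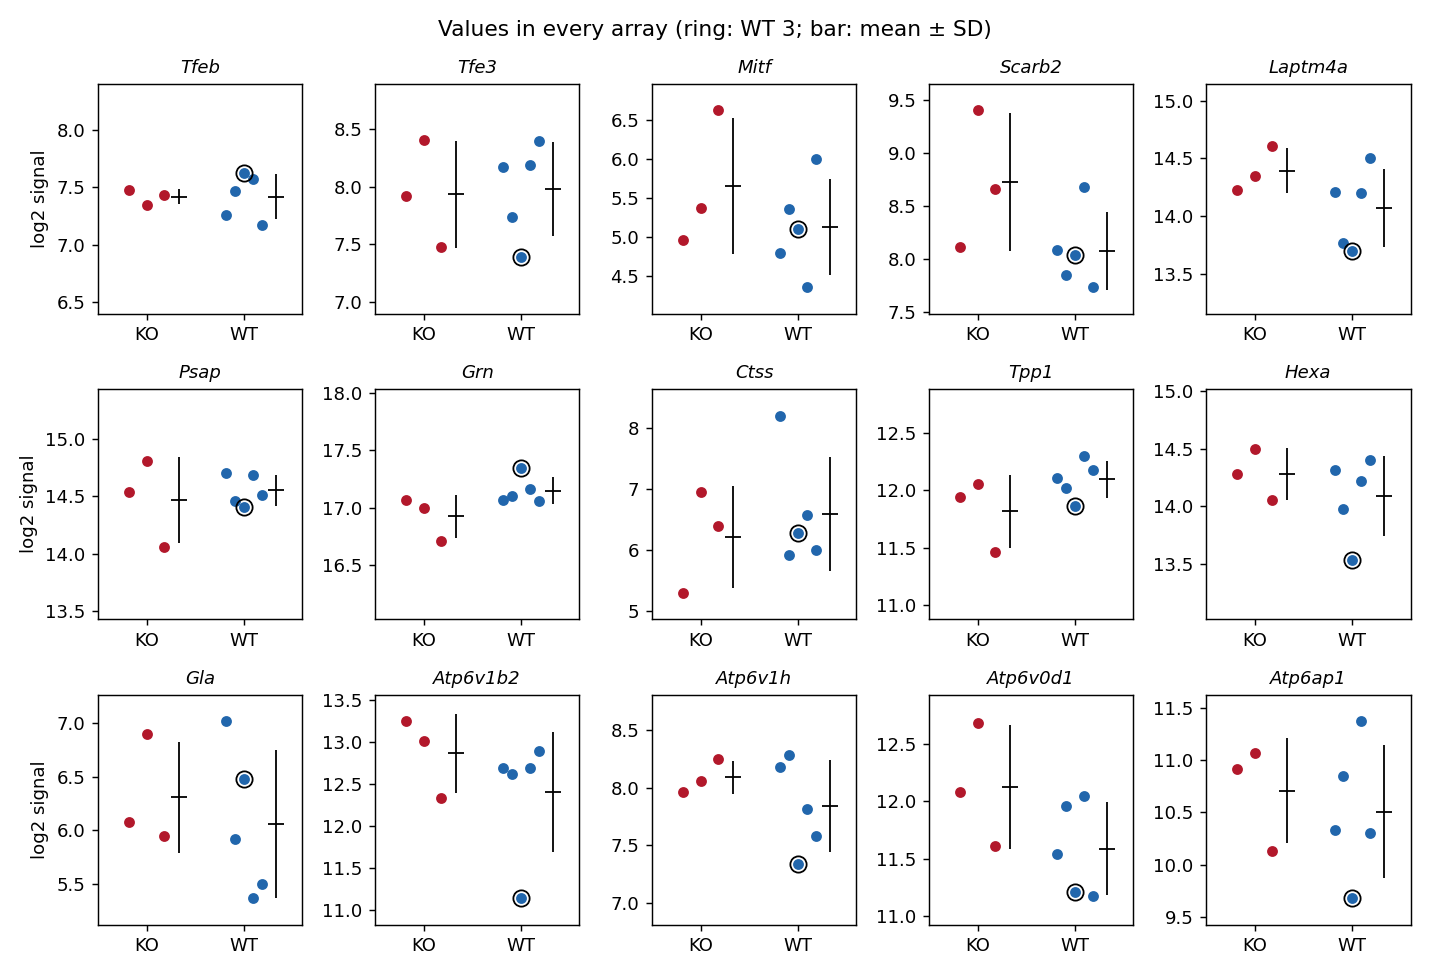
Log2 signal in every array for the 3 MiT factors and the 2 genes of each other role with the smallest unadjusted p (KO in red, left; WT in blue, right; ring, WT array 3; bar, mean ± SD over 3 KO or 5 WT arrays; the scale differs between panels). In all 15 panels the KO and WT points overlap.

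The 5 genes whose promoter windows are printed above, those holding TCACGTGA, had differences of -0.06 to 0.45 without WT array 3, with a median of 0.02. The lowest was Atp6v1a and the highest Atp6v0d1. With all arrays, 4 of the 5 were above 0 and the median was 0.25. None passed the test.

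Single arrays stood low over many of these genes together. WT array 3 was the lowest of the 8 arrays in 21 of the 38 genes, or 55.3%, against 36.5% of all tested genes. Set against the mean of the other WT arrays, it lay more than 1 lower in 9 of the 38, or 23.7%, against 22.5% of all tested genes, and more than 1 higher in 0 of the 38, against 9.77%. The median shift of WT array 3 was -0.49 over the 38 genes, against -0.15 over all tested genes. It was -0.94 in the V1 sector, -0.69 in the glycan and lipid hydrolases, -0.16 in the membrane proteins and -0.03 in the MiT factors. WT array 3 was the lowest array in 8 of the 9 glycan and lipid hydrolases. Over the 21 other hydrolases tested, described further on, its median shift was -1.25, with 12 of them, or 57.1%, more than 1 lower. Markers of mast cells, basophils and eosinophils summed to 12.30 in WT array 3 and 12.93 in WT array 4, as log2. Their sums were 9.70 to 10.31 in the other WT arrays and 9.19 to 10.43 in KO. The 2 measured erythroid markers summed to 7.14 in WT array 3 and 5.28 to 5.66 in all other arrays. These sums were picked after they were seen. The parts of sample quality and cell composition in these shifts were not tested.

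Within the KO group, array 3 was low. It held the lowest KO value in 26 of the 38 genes, or 68.4%, against 36.9% of all tested genes. Its median shift from the mean of KO arrays 1 and 2 was -0.29 over the 38 genes, against -0.03 over all tested genes. All 9 glycan and lipid hydrolases and 5 of the 6 V1 genes were lower in it than in the mean of KO arrays 1 and 2, whereas 7 of the 38 genes were higher in it, namely Tfeb, Mitf, Lamp2, Laptm4a, Npc1, Ctss and Atp6v1h. Its summed neutrophil marker signal, as log2, was 19.95, against 19.54 and 19.66 in the other KO arrays and 19.66 to 19.88 in WT. This sum was picked after it was seen, and the part of these cells was not tested.

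**Figure D3:**
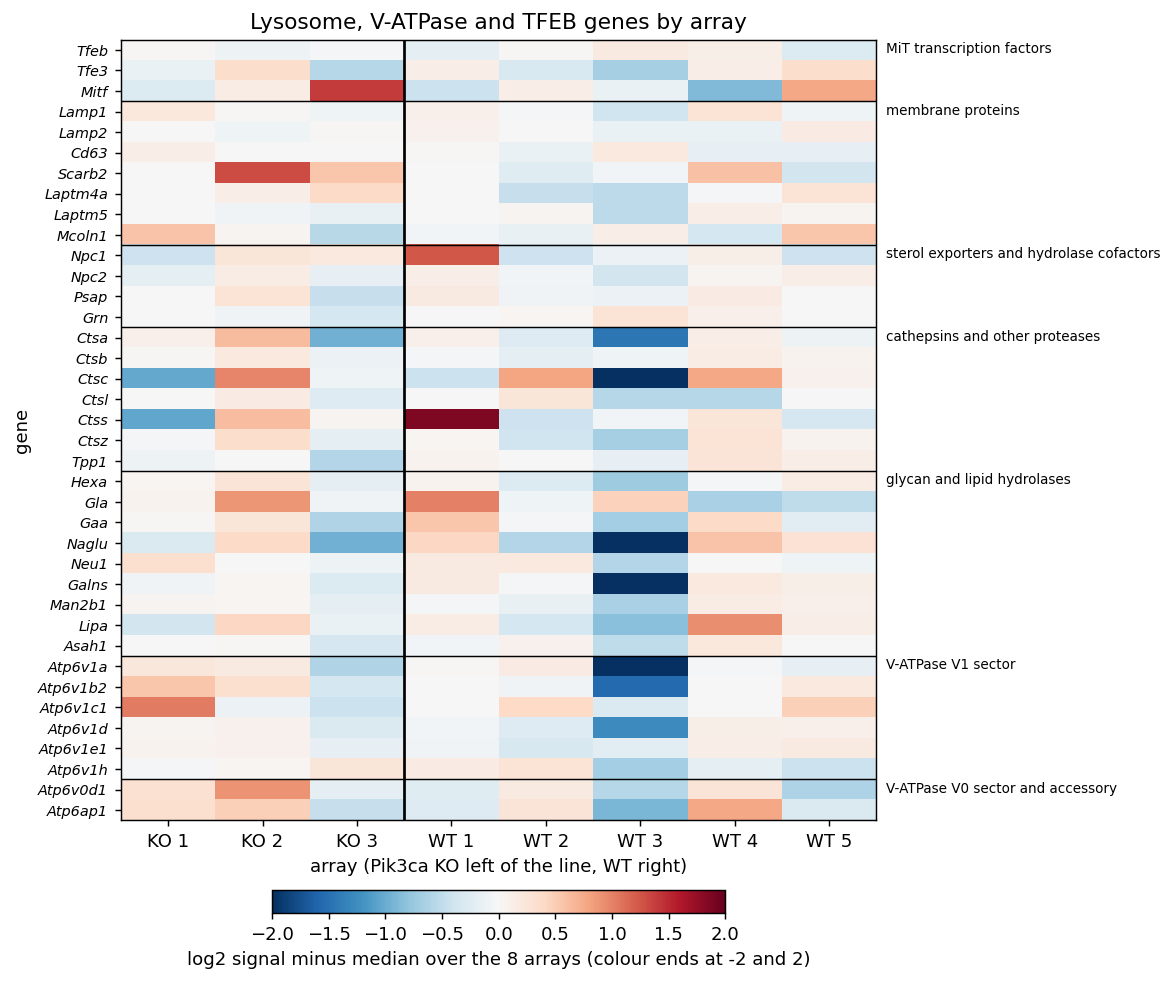
Log2 signal of each of the 38 genes, grouped by role, minus its median over the 8 arrays, in each array (KO left of the line, WT right; blue low, red high, colours end at -2 and 2). WT array 3 is the lowest array in 21 of the 38 genes, and KO array 3 the lowest KO array in 26.

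The rest of the lysosome was read through lists of genes from textbook knowledge. Of 30 other hydrolases and their cofactors, 21 were tested and 0 passed in either direction, with a median difference of 0.05, and -0.17 without WT array 3. Manba, encoding beta-mannosidase, was 9.10, 9.80 and 9.55 in KO, against 8.63, 8.52, 4.92, 9.22 and 9.005 in WT. It was higher in 2 of 3 KO arrays than in any WT array, and KO array 1 overlapped WT array 4. The difference of 1.43 became 0.64 without WT array 3, with an unadjusted p of 0.0308 and an adjusted p of 0.989 in limma. Plbd2, a phospholipase B-like gene, differed by 0.35 and Acp5, the tartrate-resistant acid phosphatase gene, by 0.67, and by 0.29 and 0.36 without WT array 3.

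Of 22 other membrane proteins and sorting receptors, 19 were tested and 0 passed, with a median of -0.05, and -0.16 without WT array 3. Igf2r, encoding the large mannose 6-phosphate receptor that delivers newly made hydrolases, had the smallest unadjusted p of the 4 lists with all arrays. It was 9.52, 9.22 and 9.81 in KO, against 8.67, 9.30, 8.45, 8.22 and 9.02 in WT. KO arrays 1 and 3 were above all WT arrays, while WT array 2 exceeded KO array 2. The difference was 0.78 with a standard error of 0.29, an unadjusted p of 0.0234 and an adjusted p of 0.998 in limma, and it was 0.71 without WT array 3. Cln3, the gene mutated in juvenile Batten disease, differed by -0.51, and by -0.28 without WT array 3. Gnptab, whose product makes the mannose 6-phosphate tag, differed by -0.36, and by -0.25 without it. Tpcn1, the gene of an endolysosomal ion channel, had the smallest unadjusted p of the 4 lists without WT array 3 and is described after that was seen. It was 9.59, 8.55 and 8.42 in KO, against 9.91, 9.54, 7.42, 9.93 and 9.71 in WT. KO array 1 overlapped WT array 2, and WT array 3 was the lowest of the 8. The difference of -0.45 became -0.92 when WT array 3 was left out, with an unadjusted p of 0.0138 and an adjusted p of 0.989 in limma.

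Of 22 other V-ATPase subunits and assembly factors, 15 were tested and 0 passed, with a median of -0.03, and -0.08 without WT array 3. Atp6v1g2, a G subunit isoform best known from brain, was 6.79, 7.17 and 7.70 in KO, against 8.01, 7.11, 8.35, 8.07 and 8.37 in WT. The KO arrays were below 4 of the 5 WT arrays and WT array 2 overlapped them, with a difference of -0.76, an unadjusted p of 0.0519 and an adjusted p of 0.998 in limma, and -0.67 without WT array 3. Its widely expressed counterpart Atp6v1g1 differed by -0.27, and by -0.10 without WT array 3, and Tmem199, an assembly factor gene, by -0.50, and by -0.31 without that array. The 7 genes that failed the filter were the isoforms Atp6v0a4, Atp6v0d2, Atp6v0e2, Atp6v1b1, Atp6v1c2, Atp6v1e2 and Atp6v1g3, several of them known from kidney, osteoclasts or testis.

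Of 25 regulators of TFEB at the lysosome, among them the Rag GTPases, the Ragulator complex, folliculin and calcineurin, 20 were tested and 0 passed, with a median of 0.13, and 0.06 without WT array 3. Akt1, the kinase below phosphoinositide 3-kinase, was 9.58, 10.76 and 10.85 in KO, against 9.88, 9.48, 6.62, 10.42 and 9.01 in WT. KO arrays 2 and 3 were above all WT arrays and KO array 1 was among them, with a difference of 1.31, and 0.70 without WT array 3. Rragc, the gene of the RagC GTPase that brings mTORC1 and TFEB to the lysosome, differed by 1.25, and by 0.28 without WT array 3. Rptor, the mTORC1 scaffold gene, differed by -0.41, and by -0.19 without that array. The adjusted p of all 3 was 0.998 in limma.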

How the data were processed

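RNA from sorted cells was labelled with biotin and hybridised to Affymetrix arrays, per the labels' protocols. The authors deposited 1 table of log2 values for 8 arrays (28846 rows, 1.89 to 18.6, array medians 5.26 to 5.51); the log base was read from that range, and the sources used here do not state background correction, normalization, software or build. Rows were named by row ID from the annotation of the platform recorded for the series (19572 with 1 symbol), which appears to be another Affymetrix mouse array than the Mouse Transcriptome Assay named in the design text. Which of these was used could not be settled, and gene names rest on that match of IDs. A row was tested if it lay above the array's median row on at least 3 arrays, with the row of highest mean kept per symbol, and KO was compared with WT by limma 3.58.1 in R 4.3.3 (two-sided moderated test from lmFit with eBayes, 95% intervals), with Benjamini-Hochberg adjustment over 9920 genes and a threshold of 0.05. The script was tested on simulated data in which no array stood apart, so that test did not cover an array like WT array 3. Values in every array are given for the 3 MiT factors and for the 2 genes of each other role with the smallest unadjusted p, and 3 genes of each further list were named by the same p, the first with every array. The others given in every array, Ctsc, Naglu, Galns, Tpcn1, Cd34 and Ms4a6c, were chosen after their values were seen. The members and lists were chosen with earlier results of these data known. Nothing in the labels ties equal replicate numbers of KO and WT arrays together, so they were not treated as pairs. The deviations of same-numbered arrays correlated by 0.02, -0.02 and 0.14. No 2 arrays were duplicates (smallest root mean square difference 0.574). Plots were made in Python 3.11.15 (matplotlib 3.10.9).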

Additional observations from a re-analysis of the deposited data

Results flagged for a closer look

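In the 5 WT arrays, 50 genes were searched for 1 array far from the others, by dividing its gap to the nearest array by the whole WT range. This marked 11 genes, or 22%, against 16.8% of all 9920 tested genes, where chance gives about 1 in 20. WT array 3 was the array in 9 of the 50, or 18%, against 14.5% of all tested genes. On WT array 3 the value was 4.99 for Naglu, 11.46 for Galns, 8.51 for Atp6v1a, 11.14 for Atp6v1b2, 9.77 for Atp6v1d, 8.67 for Ctsa, 16.29 for Laptm5, 4.92 for Manba and 6.08 for Rragc, each the lowest WT value of its gene. Ctss was 8.20 on WT array 1, above the other WT arrays, and Atp6v1g2 was 7.11 on WT array 2, below them.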

How the results depend on the processing

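No gene passed under any of the 17 alternatives, among all genes (smallest adjusted p 0.264, without KO replicate 3) or among the 38. Neither direction nor call changed for the 12 genes named from the other lists. These were named for their small unadjusted p, a choice that favours genes whose sign holds, so they do not compare with the 38. At an unadjusted p under 0.05 there was at most 1 of the 38 in any alternative, Scarb2 without KO replicate 1 or WT replicate 4 and Atp6v0d1 without KO replicate 3. The median difference over the 38 genes lay between 0.03 and 0.15 under the normalizations, filters, weights and the replicate block, and between -0.03 and 0.18 with 1 array left out. Of the 38 genes, 12 kept the sign of their difference under all alternatives and 26 turned in sign under at least 1, none of them called. With the replicate number as a block, which also gave 0 calls, the turned differences were Asah1 0.050, Gla -0.16, Laptm5 0.078, Lipa 0.32, Mcoln1 0.049, Npc2 0.027 and Tfe3 0.17. With array weights they were Ctsc -0.27, Galns -0.16, Lamp1 -0.0057, Man2b1 -0.025, Mcoln1 0.082, Naglu -0.35 and Tfeb 0.049. With quantile normalization the turned difference was Atp6v1c1 -0.019. With median centring it was Atp6v1c1 -0.0038. With 1 array left out, the differences that turned ranged over Asah1 -0.17 to 0.059, Atp6ap1 -0.0081 to 0.48, Atp6v1a -0.063 to 0.65, Atp6v1c1 -0.39 to 0.34, Atp6v1d -0.022 to 0.35, Atp6v1e1 -0.014 to 0.13 and Ctsa -0.11 to 0.69. They ranged over Ctsb -0.034 to 0.13, Ctsc -0.34 to 0.69, Ctss -0.75 to 0.077, Gaa -0.29 to 0.13, Galns -0.21 to 0.35, Gla -0.045 to 0.49 and Lamp1 -0.023 to 0.15. Further ranges were Lamp2 -0.049 to 0.026, Laptm5 -0.14 to 0.027, Lipa -0.26 to 0.20, Man2b1 -0.052 to 0.16, Mcoln1 -0.27 to 0.28, Naglu -0.46 to 0.80 and Neu1 -0.0013 to 0.21. The last were Npc1 -0.20 to 0.22, Npc2 -0.16 to 0.015, Psap -0.25 to 0.12, Tfe3 -0.28 to 0.19 and Tfeb -0.063 to 0.049. Same-numbered KO and WT arrays deviated together by correlations of 0.018, -0.018 and 0.14. Mitf exceeded the median row on 3 of 8 arrays, so its signal over background limits what its difference shows. The cause of the changes of sign was not tested.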

Other observations

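The genes that recruit mTORC1 to the lysosome did not all move the same way on WT array 3. These genes were chosen after their values were seen. Rragc was 6.08 on it and 10.08 to 11.41 on the other WT arrays, Rraga 7.61 and 9.92 to 10.22, and Lamtor3 6.24 and 9.15 to 9.83. Lamtor1 was 9.27 on it and 6.49 to 7.65 on the other WT arrays, and Lamtor5 15.54 and 14.36 to 14.57. On the KO arrays Lamtor1 was 7.83, 7.72 and 7.80, and without WT array 3 it differed by 0.56, with an unadjusted p of 0.073 and an adjusted p of 0.989 in limma.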
